A study of Mus musculus with 24 samples.

Results

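Oligodendrocytes wrap axons of the central nervous system in myelin, and the 32 genes described here mark the path of these cells from the dividing precursor to the myelinating cell. They were picked from the 37991 counted genes by name: 15 code for proteins of the myelin membrane and its adhesion, 6 for lipid and metabolic enzymes and an iron carrier, 5 for transcription factors of the lineage, 3 mark precursor cells and 3 mark differentiating or newly formed oligodendrocytes. The rule uses gene names only, but the members and the lists used below were chosen with earlier results of these data known. Every one of the 32 genes passed the filter on low counts in both experiments, so none is missing from the tests. The first 3 classes, 26 genes, are called mature genes below. The name is a label only, since the third class includes factors of the whole lineage, Olig1 and Olig2 among them.

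Precursor cells carry the receptor for platelet-derived growth factor and the proteoglycan NG2, and they persist in the adult brain. When they differentiate, they pass through a short stage marked by Gpr17, Bcas1 and Enpp6, and the factors Olig2, Sox10 and Myrf then switch on the genes of compact myelin. In the striatum, oligodendrocytes lie among the medium spiny neurons and in the fibre bundles that cross it, and the anterior commissure and the corpus callosum, both rich in myelin, lie next to the nucleus accumbens.

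RNA was sequenced from mouse nucleus accumbens, a part of the ventral striatum concerned with reward, in 8 groups of 3 libraries, each library holding RNA pooled from 4 mice. The wild-type experiment held stressed females, control females, stressed males and control males of the C57BL/6J strain. In the floxed experiment, every mouse was stressed and carried the Dnmt3a2lox/2lox genotype on a C57BL/6J background, in which Cre recombinase deletes part of Dnmt3a, a DNA methyltransferase, and received AAV-CRE or AAV-GFP (Cre females, GFP females, Cre males, GFP males). The sources used here give neither the age of the mice nor the promoter that drives Cre nor the cell types that the virus reached, and the description of the tissue punch names dorsal striatum beside nucleus accumbens. The unit of replication was the library, so all p-values measure the spread between pools of mice. Genotype, virus and depth all differ between the experiments, and each was fitted on its own.

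Total counts per library were 7116123 to 12145551 in the wild-type and 28132563 to 59829070 in the floxed experiment. The 32 genes took 0.375% to 0.515% of the counts of a wild-type library and 0.325% to 0.420% of a floxed library, except for Cre male library 2, at 0.550%. This library stood apart in other ways. Its summed level of 14 choroid plexus and ependyma markers was 3307 CPM (counts scaled by library size with TMM factors), against 173 to 376 CPM in the other 11 floxed libraries, and its summed level of 14 medium spiny neuron markers was 4423 CPM, against 7859 to 10149 CPM. In addition, the 13 markers of cortical and other excitatory neurons summed to 691, 713 and 351 CPM in Cre males 1, 2 and 3, against 130.2, 147 and 155 CPM in GFP males. Medium spiny neuron markers were present in every library and summed to between 4423 and 12151 CPM, and the Schwann cell markers summed to 101 to 136 CPM. Dnmt3a was at 139.5 ± 2.99 CPM in Cre males and 172 ± 8.63 CPM in GFP males (log2 fold change -0.30 ± 0.056 SE, edgeR adjusted p = 0.0149), and at 148 ± 7.89 CPM in Cre females and 162 ± 7.19 CPM in GFP females (-0.12 ± 0.056, adjusted p = 0.829). Its count also includes reads from exons outside the deleted part.

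The set of RefSeq promoter windows used here, 250 bases before to 50 bases after the start, covers 23 of the 32 genes (31 windows, build GRCm38.p6). Mbp, Gpr17, Fa2h, Trf, Sox10, Olig1, Myrf, C1ql1 and Bcas1 have no sequence shown here. The motif CTGGCAC, a form of the site that Myrf binds, was in 5 of the 31 windows (16.1%; 4 genes) and in 5.01% of all 32851 windows, and ACAAAG, a site bound by SOX factors, was in 8 of the 31 (25.8%; 6 genes) and in 18.7% of all windows, both motifs being searched on both strands. Overlapping windows count a site more than once: of the 3 Mag windows, 2 overlap and hold the same Myrf site and the same SOX site, and the other holds neither motif. The stretches of 250 bases before the start are shown for 3 myelin genes that hold the Myrf motif and for Nkx6-2, one of the genes that passed the test below. Capitals mark matches to either motif. The Mag stretch is chr7:30914864-30915113 (minus strand), with the Myrf motif 68 and the SOX motif 126 bases before the start. The Cnp stretch is chr11:100574689-100574938 (plus strand), with the motifs 81 and 167 bases before the start. The Hapln2 stretch is chr3:88027512-88027761 (minus strand), with the Myrf motif 144 bases before the start. The Nkx6-2 stretch is chr7:139582798-139583047 (minus strand), which holds neither motif. A match describes the letters of the window only.
Mag: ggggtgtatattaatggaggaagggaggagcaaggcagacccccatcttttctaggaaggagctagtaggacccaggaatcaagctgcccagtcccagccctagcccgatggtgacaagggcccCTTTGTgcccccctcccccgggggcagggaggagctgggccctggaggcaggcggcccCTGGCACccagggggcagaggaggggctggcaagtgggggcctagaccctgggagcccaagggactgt
Cnp: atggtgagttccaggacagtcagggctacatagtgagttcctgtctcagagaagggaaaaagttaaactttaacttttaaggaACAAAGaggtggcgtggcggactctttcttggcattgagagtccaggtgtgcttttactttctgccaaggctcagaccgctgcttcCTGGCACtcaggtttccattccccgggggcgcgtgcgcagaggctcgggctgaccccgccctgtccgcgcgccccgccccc
Hapln2: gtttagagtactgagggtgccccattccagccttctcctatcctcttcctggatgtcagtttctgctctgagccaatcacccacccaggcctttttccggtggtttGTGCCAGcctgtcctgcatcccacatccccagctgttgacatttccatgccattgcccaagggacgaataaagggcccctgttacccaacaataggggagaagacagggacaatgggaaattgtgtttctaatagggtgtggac
Nkx6-2: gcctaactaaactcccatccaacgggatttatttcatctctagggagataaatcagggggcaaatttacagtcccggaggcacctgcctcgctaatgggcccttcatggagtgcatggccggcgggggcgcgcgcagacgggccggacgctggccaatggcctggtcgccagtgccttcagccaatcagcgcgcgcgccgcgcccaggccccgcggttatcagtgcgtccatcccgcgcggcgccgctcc

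The order of levels, compared as CPM per kb of exon, was led by the structural genes of myelin. Mbp, which codes for the basic protein that compacts the cytoplasmic faces of myelin, was highest in all 8 groups, at 171 ± 17.8 CPM per kb in Cre females (SD, n = 3), 187 ± 24.04 in GFP females, 204 ± 55.9 in Cre males, 177 ± 8.21 in GFP males, 196 ± 28.9 in stressed females, 226 ± 74.9 in control females, 209.9 ± 15.8 in stressed males and 221 ± 15.9 in control males. Mobp, another basic protein of compact myelin, followed, at 72.3 CPM per kb in GFP males to 116 CPM per kb in stressed males. Cnp (an enzyme of the non-compact myelin channels), Mal (a raft proteolipid), Qdpr (an enzyme that regenerates tetrahydrobiopterin) and Cldn11 (the claudin of myelin tight junctions) made the next tier, with group means between 53.0 and 95.02 CPM per kb. Means of Mobp and Cnp differed by less than the larger of their SDs in all 4 floxed groups and in 0 of 4 wild-type groups, and those of Mal and Qdpr in 7 of 8 groups. Enpp6, a choline phosphodiesterase of newly formed oligodendrocytes, was lowest in all 8 groups, at 1.01 to 1.30 CPM per kb. Among precursor genes, Pdgfra had group means of 7.01 to 8.39 CPM per kb and Cspg4, which codes for NG2, 1.90 to 2.25 CPM per kb.

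**Figure D1:**
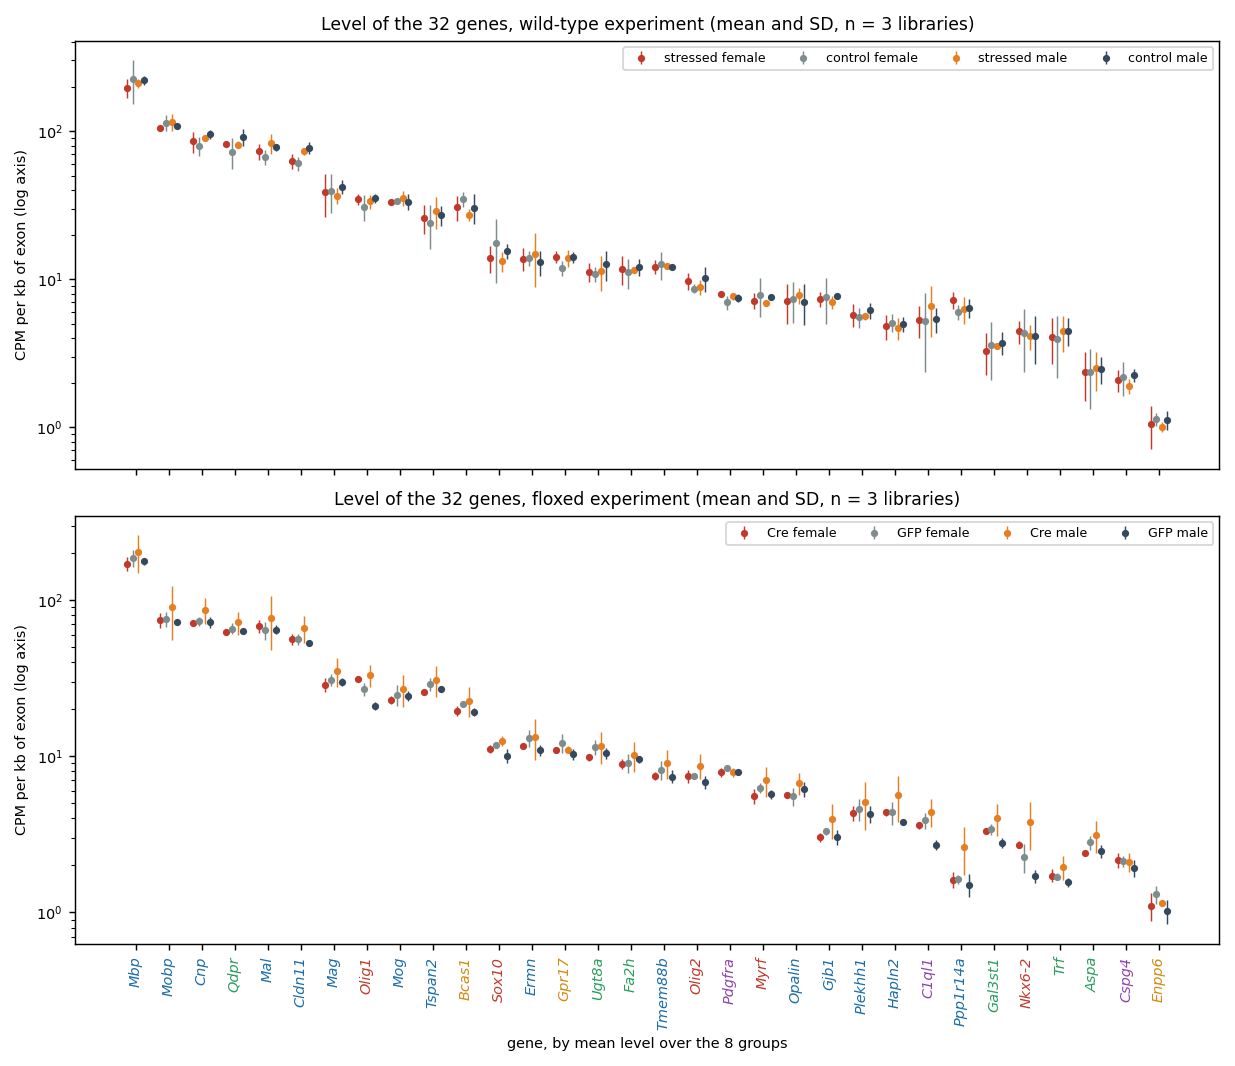
Level of each gene in CPM per kb of exon (log axis), as mean and SD over the 3 libraries of each group, with the wild-type experiment above and the floxed experiment below. Mbp led in all 8 groups and Enpp6 was last, and label colours give the class (blue membrane and adhesion, green enzymes and iron carrier, red transcription factors, purple precursor, orange differentiating).

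The first comparison asks whether stress moved these genes in each sex. No member passed the test in stressed against control females or in stressed against control males. In females, 17 of the 32 genes had a log2 fold change above 0 (48.7% of all genes tested did) and 15 below, with a median of 0.011 (all genes tested, -0.0058), and none had an unadjusted p under 0.05. In males, 10 were above 0 (49.7% of all genes) and 22 below, with a median of -0.067, and again none had an unadjusted p under 0.05. The median in males was -0.024 without control male library 1 and -0.11 without control male library 2. Across all 15249 genes tested, 0% were called in females and 0.00656% in males, and 1.68% and 2.81% had an unadjusted p under 0.05. DESeq2 called 0 of the 32 genes in either sex, and 2 of all genes in females and 4 in males. The precision limits this: the 95% interval of the log2 fold change reached a change of 1.5 times in either direction for 11 of the 32 genes in females and for 14 in males.

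Among the myelin proteins, Mbp was at 1939, 1528 and 1504 CPM in stressed females and 2615, 1759 and 1377 CPM in control females. Control female library 1 held the highest value and control female library 3 the lowest, with all stressed libraries between them (log2 fold change -0.21 ± 0.19 SE, adjusted p = 0.9999). Mbp was at 1900.00, 1635 and 1798 CPM in stressed males and 1995, 1729 and 1894 CPM in control males, which overlapped. Mog, an adhesion protein on the outer face of the sheath, was at 53.9, 57.6 and 57.2 CPM in stressed females and 56.3, 59.9 and 56.6 CPM in control females. It was at 52.9, 66.6 and 61.2 CPM in stressed males and 56.1, 64.2 and 50.7 CPM in control males, and the groups overlapped in both sexes. Mag, the adhesion protein that faces the axon, was at 216, 133 and 124 CPM in stressed females and 205, 168 and 112 CPM in control females. It was at 167, 130.01 and 151 CPM in stressed males and 194, 165 and 157 CPM in control males. Both groups of females had library 1 on top, and in males the groups overlapped. Cnp was at 368, 284 and 278 CPM in stressed females and 309.9, 315 and 242 CPM in control females. It was at 319.5, 319 and 335 CPM in stressed males and 373, 322 and 342 CPM in control males, where 1 stressed library lay above 1 control library.

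Of the transcription factors, Sox10 was at 49.2, 46.2 and 32.4 CPM in stressed females and 79.8, 49.4 and 30.9 CPM in control females. The single control value of 79.8 CPM lay far above the others, and the 3 libraries of each group overlapped (-0.32 ± 0.28 SE, adjusted p = 0.9999). Sox10 was at 45.7, 33.8 and 42.3 CPM in stressed males and 42.7, 45.4 and 53.1 CPM in control males. Olig2, the basic helix-loop-helix factor needed for the lineage, was at 21.5, 28.02 and 24.1 CPM in stressed females and 20.3, 23.5 and 22.01 CPM in control females. Its values in stressed males, 19.5, 24.3 and 23.2 CPM, overlapped those in control males, 22.95, 22.6 and 31.6 CPM (-0.21 ± 0.17, adjusted p = 0.9999). Myrf, the factor that maintains myelin gene expression, was at 70.01, 57.6 and 56.8 CPM in stressed females and 86.4, 68.3 and 46.96 CPM in control females. Stressed males had 60.8, 56.1 and 59.6 CPM of Myrf and control males 64.9, 67.4 and 62.1 CPM, so that no stressed male library reached the control libraries. Myrf and Gjb1, the gap junction protein connexin 32, were the 2 members with this pattern, which 4.24% of all genes showed. All 5 transcription factors had a log2 fold change below 0 in males, and none passed the test.

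Among the precursor genes, Pdgfra, the receptor for platelet-derived growth factor, was at 78.3, 78.95 and 81.1 CPM in stressed females and 65.2, 79.03 and 66.6 CPM in control females (0.18 ± 0.12 SE, adjusted p = 0.9999). It was at 72.3, 79.8 and 78.5 CPM in stressed males and 69.8, 79.6 and 75.9 CPM in control males. Pdgfra had the smallest spread within groups of all 32 genes in both experiments (SD of log2 CPM 0.098 in wild-type and 0.070 in floxed libraries). Cspg4 was at 29.7, 24.3 and 21.1 CPM in stressed females and 33.7, 23.7 and 21 CPM in control females. Its stressed males had 24.6, 19.5 and 23.9 CPM and its control males 29.6, 26.7 and 24.3 CPM, which overlapped (-0.24 ± 0.19, adjusted p = 0.9999). Gpr17, a receptor of differentiating cells, was at 82.1, 70.9 and 69.1 CPM in stressed females and 67.4, 64.4 and 53.7 CPM in control females. All 3 stressed libraries lay above the control libraries, and the fold change did not pass the test (0.26 ± 0.14, adjusted p = 0.9999). Ppp1r14a, an inhibitor of myosin phosphatase, was the other of the 2 genes with no overlap in females (0.27 ± 0.19, adjusted p = 0.9999), and 2.72% of all genes had every stressed female library above the control libraries. In males, Gpr17 was at 82.2, 63.7 and 70.3 CPM in stressed and 69.4, 70.4 and 80.6 CPM in control libraries. Enpp6 was at 9.21, 6.04 and 5.01 CPM in stressed females and 8.11, 6.997 and 6.69 CPM in control females. It was at 6.67, 6.84 and 5.94 CPM in stressed males and 8.45, 6.73 and 6.55 CPM in control males. The Enpp6 groups overlapped in both sexes.

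Among the members of smallest p in females was also Bcas1, a protein of early myelinating cells, at -0.20 ± 0.18 (SE, adjusted p = 0.9999). In males the members of smallest p were, beside Olig2 and Cspg4, C1ql1, a secreted C1q-like protein of precursor cells (0.30 ± 0.36, adjusted p = 0.9999), Mobp (0.10 ± 0.13, adjusted p = 0.9999), Ermn, a cytoskeletal protein of the sheath (0.18 ± 0.24, adjusted p = 0.9999), and Qdpr (-0.17 ± 0.16, adjusted p = 0.9999). Averaged over the sexes, no member was called, against 0.0131% of all genes. The members of smallest p there were Pdgfra (0.10 ± 0.084), Gpr17 (0.12 ± 0.10) and Mal (0.11 ± 0.10) above 0, and Sox10 (-0.27 ± 0.19), Bcas1 (-0.18 ± 0.13) and Cspg4 (-0.15 ± 0.13) below 0, each with adjusted p = 0.9997. The effect of stress in females minus that in males was not called for any member (0% of all genes), and its smallest p was for Olig2 (0.37 ± 0.23), Qdpr (0.34 ± 0.23) and Gpr17 (0.29 ± 0.20) above 0 and for Mobp (-0.21 ± 0.18), Mog (-0.11 ± 0.18) and Ermn (-0.20 ± 0.34) below 0, each with adjusted p = 0.99998. Markers of other cells differed between these libraries: choroid plexus and ependyma markers summed to 357, 271 and 408 CPM in stressed males and 193, 1862 and 4736 CPM in control males. The 12 cortical markers tested had a median log2 fold change of -1.05 in females, with 9 below 0, and 0.12 in males. For the 14 medium spiny neuron markers it was -0.14 in females and -0.15 in males, with 13 below 0 in each sex. No marker of these 2 lists was called. Control male library 3 held 4736 CPM of choroid plexus markers. Its summed mature genes, 4406 CPM, lay within the range of the other control and stressed males. Cre male library 2 of the floxed experiment, with 3307 CPM of choroid plexus markers, had the highest sum of mature genes there, 5111 CPM. Each is a single library, and the part of the markers of other cells in the member values was not tested.

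**Figure D2:**
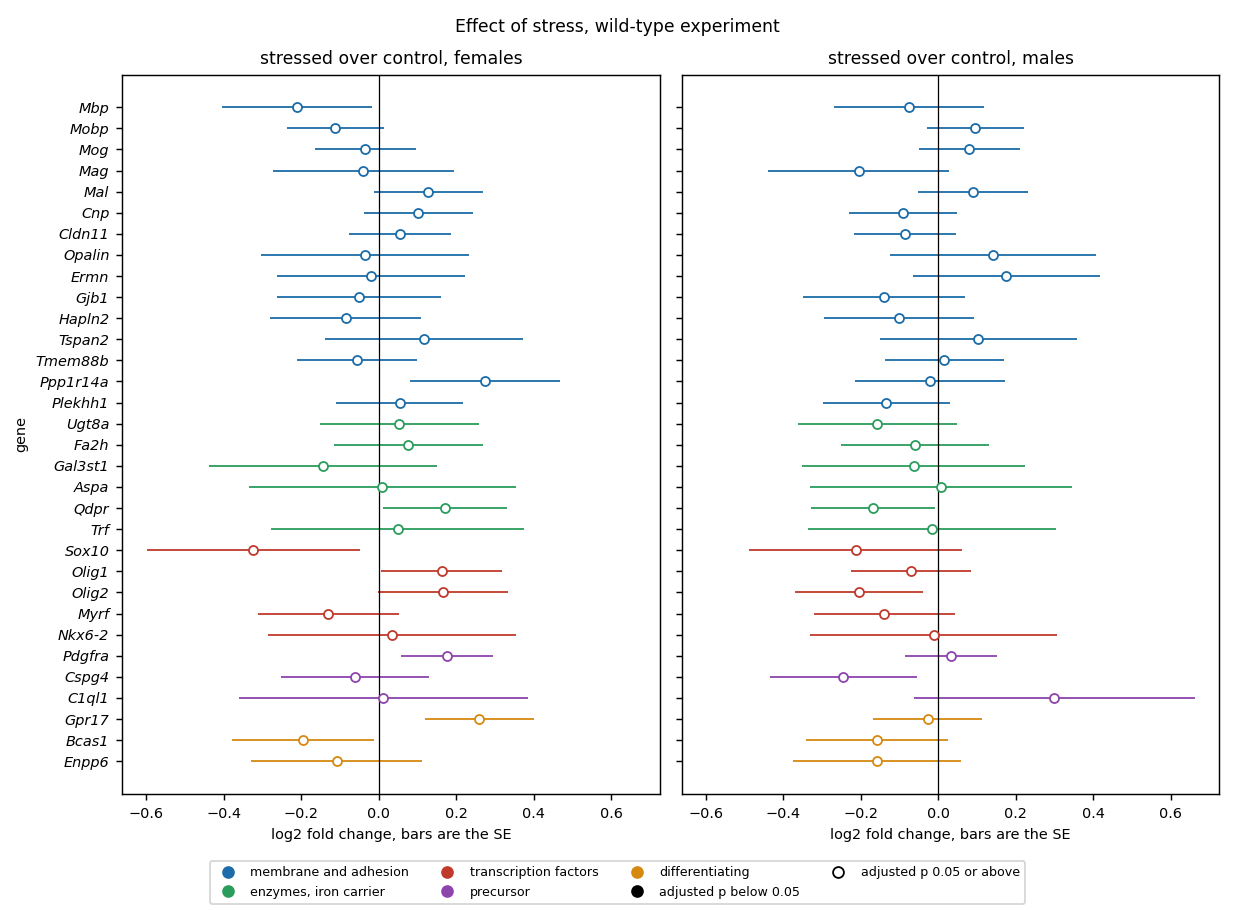
Log2 fold change of each of the 32 genes, stressed over control, in females (left) and males (right), with bars of 1 SE and 3 libraries per group. No point is filled, since no gene had an adjusted p below 0.05, and the values lie between -0.32 and 0.30.

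Genes of the same pathways outside the 32 were taken from 5 lists: 35 other mature oligodendrocyte genes, 15 other precursor genes, 20 regulators, ligands and receptors of the lineage, 19 cholesterol synthesis genes (myelin is rich in cholesterol) and 11 partners at the node and paranode of the axon. None of them passed the test for stress in either sex. In females the smallest p values of each list belonged to Adamts4 (-0.24 ± 0.15 SE), Sox6 (0.26 ± 0.15), Hes5 (0.47 ± 0.23), Sqle (0.33 ± 0.18) and Kcna2 (-0.22 ± 0.13), all with adjusted p = 0.9999. In males they belonged to Enpp2 (-2.43 ± 0.82), Tnr (-0.24 ± 0.12), Bmp4 (-0.90 ± 0.36), Cyp51 (-0.29 ± 0.22) and Kcna2 (-0.23 ± 0.13), with adjusted p = 0.9999. Enpp2 is made by choroid plexus as well as by oligodendrocytes and also stands in the choroid plexus list. Of the 35 other mature genes, 5 had a log2 fold change above 0 in stressed males (median -0.13), and 18 in stressed females (median 0.0016).

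The second comparison asks what Cre, given to stressed floxed mice, did to these genes in each sex. In males, 31 of the 32 genes had a higher mean in Cre than in GFP libraries, with a median log2 fold change of 0.28, against 0.0046 for all 17597 genes tested, of which 50.9% lay above 0. Olig1, Nkx6-2 and C1ql1 rose in Cre males, which is 3 of 32 members (9.38%), where 4.96% of all genes were called in either direction and 3.68% rose. In all, 13 members had an unadjusted p under 0.05, as did 24.8% of all genes. Because the members were chosen with earlier results of these data known, these shares are a description and no independent test. In bulk tissue, more cells of a type and more RNA per cell cannot be told apart. The 3 Cre male libraries did not act alike: library 2 held the highest value of all 12 floxed libraries for 29 of the 32 genes, and lay above every GFP male library for 30 of them, library 3 for 22 and library 1 for 9, while library 1 lay below every GFP male library for 10 genes. Without library 2 the median was 0.10, 23 of the 32 genes were above 0, and 2 were called, Olig1 and Nkx6-2, where 1.91% of all genes were.

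Olig1, a factor of the whole lineage that takes part in maturation, was at 60.1, 83.1 and 70.4 CPM in Cre males and 48.9, 43.99 and 43.7 CPM in GFP males. All Cre libraries lay above all GFP libraries, with Cre library 2 on top. The log2 fold change was 0.65 ± 0.11 (SE; 95% interval 0.42 to 0.88; edgeR adjusted p = 0.0108), and without Cre male library 2 it was 0.52 ± 0.086 (adjusted p = 0.0217). Nkx6-2, a homeodomain factor of mature oligodendrocytes, was at 4.72, 9.67 and 7.33 CPM in Cre males and 3.603, 3.197 and 2.96 CPM in GFP males. Again no values overlapped, with Cre library 2 highest and Cre library 1 lowest of the Cre values. The log2 fold change was 1.16 ± 0.23 (SE; 95% interval 0.66 to 1.67; adjusted p = 0.0192) and without library 2 0.89 ± 0.20 (adjusted p = 0.0485). C1ql1 was at 5.93, 7.99 and 5.63 CPM in Cre males and 3.84, 4.34 and 3.77 CPM in GFP males, again without overlap. Its log2 fold change was 0.72 ± 0.15 (SE; 95% interval 0.40 to 1.03; adjusted p = 0.0205), and without library 2 it no longer passed, at 0.54 ± 0.13 (adjusted p = 0.0562). Each call also rested on the GFP males: without GFP male library 1 only Olig1 was called, and without GFP male library 2 or without library 3 no member was. Of all genes, 246, 93 and 165 were called without GFP male library 1, 2 and 3, against 872 with all libraries, while the median over the 32 genes was 0.23, 0.26 and 0.34. Olig1 overlaps Gm15966 and Nkx6-2 overlaps Inpp5a on the opposite strand, and the library kit does not mark strand, so reads of these pairs cannot be told apart. The same holds for 8 other members, among them Cnp with Dnajc7, Pdgfra with Gm42802 and Gm42803, and Gpr17 with Lims2, so that 10 of the 32 are affected. The cortical markers moved with these calls, since they were high in all 3 Cre males, and their part in the member values cannot be told apart from Cre. With the mean of these markers as a covariate no member and 0 of all genes were called and the median over the 32 genes was -0.082, while the log2 fold change was 0.69 for Olig1, 1.10 for Nkx6-2 and 0.48 for C1ql1. With the choroid plexus markers as a covariate no member and 43 of all genes were called and the median was -0.0046, with 0.45 for Olig1, 0.71 for Nkx6-2 and 0.42 for C1ql1.

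**Figure D3:**
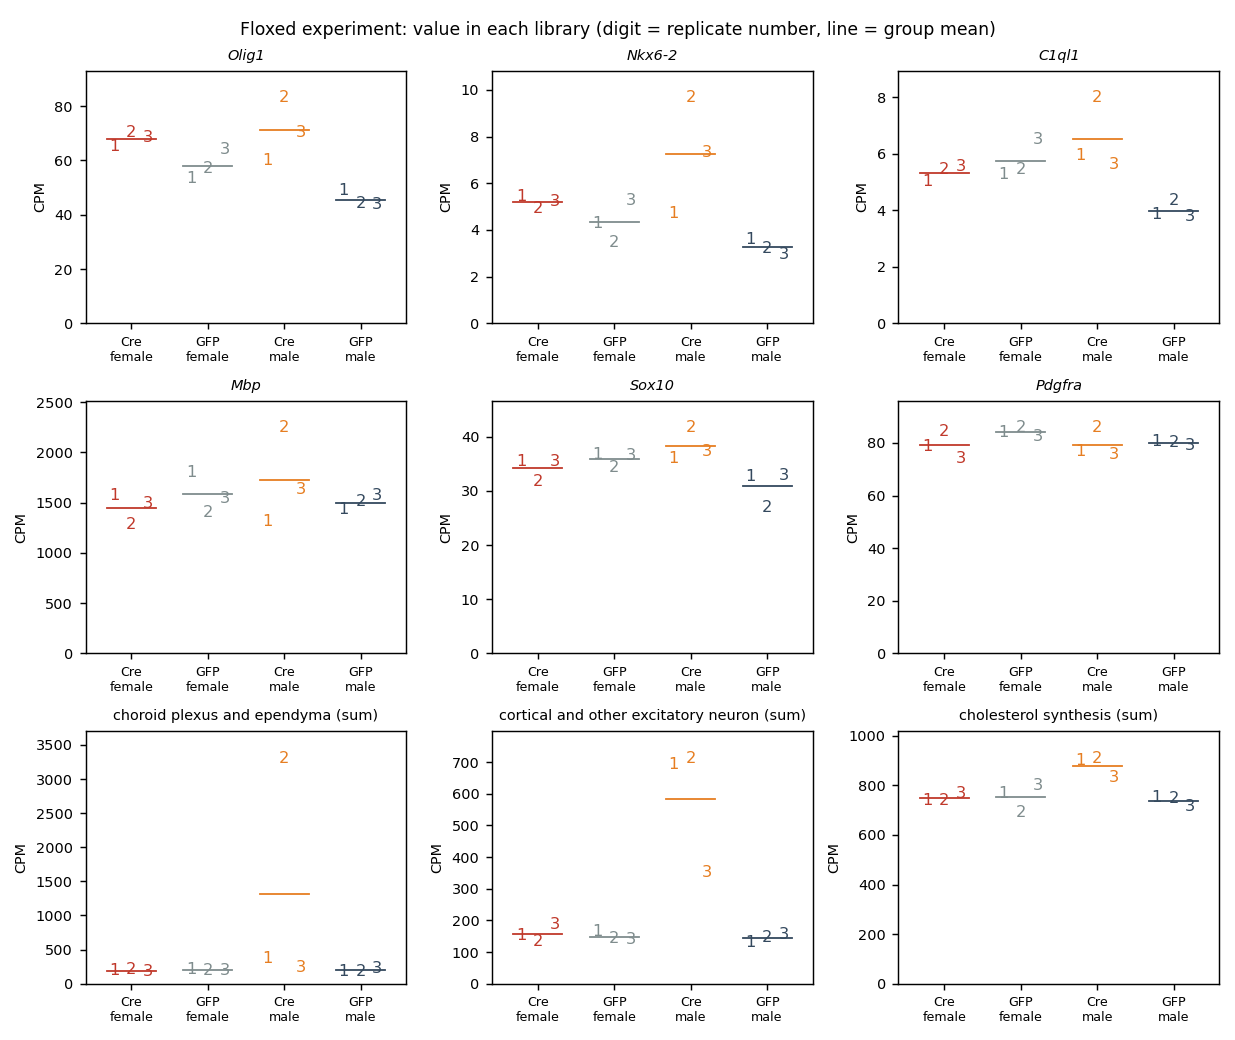
CPM in each of the 12 floxed libraries, Cre left of GFP within each sex, for 6 of the genes and for the sums of 14 choroid plexus, 13 cortical and 18 cholesterol synthesis genes; digits are replicate numbers and lines are group means. Cre male library 2 is on top for Olig1, Nkx6-2, C1ql1, Mbp and Sox10 and holds 3307 CPM of choroid plexus markers.

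The other transcription factors lay in the same direction. Sox10, which activates myelin genes directly, was at 35.9, 41.6 and 37.2 CPM in Cre males and 32.7, 26.99 and 32.8 CPM in GFP males. No values overlapped, and the fold change did not pass the test (0.31 ± 0.083 SE, adjusted p = 0.052; without library 2 0.25 ± 0.083, adjusted p = 0.146). Olig2 was at 19.4, 26.6 and 20.05 CPM in Cre males and 18.7, 15.5 and 17.9 CPM in GFP males, also without overlap (0.35 ± 0.12, adjusted p = 0.106). Myrf was at 51.9, 75.4 and 52.8 CPM in Cre males and 47.6, 46.3 and 52.8 CPM in GFP males. Only Cre male library 2 stood clear of the GFP values for Myrf (0.30 ± 0.14, adjusted p = 0.209). In this way 4 of the 5 factors were without overlap, among 9 of the 32 members (14.7% of all genes had every Cre male library above the GFP males).

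The 15 membrane and adhesion genes all had a log2 fold change above 0 in Cre males, with a median of 0.27, and none was called. Mbp was at 1311, 2244 and 1636 CPM in Cre males and 1429, 1507 and 1567 CPM in GFP males. Cre library 1 lay below and library 2 far above the GFP values (0.21 ± 0.17 SE, adjusted p = 0.475), and without library 2 the log2 fold change was -0.029 ± 0.12. Mog was at 37.5, 57.98 and 42 CPM in Cre males and 37.8, 43.4 and 43.4 CPM in GFP males, which overlapped (0.15 ± 0.15, adjusted p = 0.591). Mag was at 120.5, 178 and 133 CPM in Cre males and 115, 120.1 and 129 CPM in GFP males, with only library 1 inside the GFP range (0.25 ± 0.13, adjusted p = 0.272). Cnp was at 257, 375 and 314 CPM in Cre males and 244, 258 and 286 CPM in GFP males, with the same pattern (0.27 ± 0.11, adjusted p = 0.179). Ppp1r14a was at 2.899, 4.97 and 2.87 CPM in Cre males and 1.801, 1.92 and 2.45 CPM in GFP males. Its groups did not overlap, and at 0.80 ± 0.22 (adjusted p = 0.0579) it had the largest fold change of the class. Hapln2, a link protein of the nodal matrix, was at 10.2, 18.4 and 11.6 CPM in Cre males and 8.84, 8.78 and 9.38 CPM in GFP males, also without overlap (0.58 ± 0.19, adjusted p = 0.101).

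All 6 enzyme and iron carrier genes lay above 0 in Cre males, with a median of 0.26, and none was called. Gal3st1, which sulfates galactosylceramide to sulfatide, was at 6.33, 10.2 and 8.26 CPM in Cre males and 5.27, 5.82 and 6.02 CPM in GFP males. Every Cre library exceeded every GFP library (0.54 ± 0.15 SE, adjusted p = 0.0576), and DESeq2 called it among 1811 of all genes. Ugt8a, which makes the galactosylceramide, was at 41.99, 65.8 and 50.2 CPM in Cre males and 43.7, 51.5 and 47.5 CPM in GFP males, with library 1 below the GFP values (0.15 ± 0.14, adjusted p = 0.545). Fa2h, which hydroxylates the fatty acids of myelin lipids, had the smallest fold change of this class (0.090 ± 0.14, adjusted p = 0.729).

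The 6 precursor and differentiating genes had a median log2 fold change of 0.15 in Cre males. Pdgfra was at 76.8, 85.7 and 75.4 CPM in Cre males and 80.5, 80.2 and 78.9 CPM in GFP males and was the only member below 0, at -0.0096 ± 0.058 (SE, 95% interval -0.14 to 0.12). Its interval leaves out a change as large as that of Olig1. Cspg4 was at 23.99, 29.1 and 22.2 CPM in Cre males and 26.3, 21.03 and 21.6 CPM in GFP males, which overlapped (0.13 ± 0.12, adjusted p = 0.525). Gpr17 was at 56.4, 55.04 and 60.4 CPM in Cre males and 48.97, 57.8 and 54.6 CPM in GFP males, and it was one of the 2 members for which library 2 stayed inside the GFP range (0.091 ± 0.091, adjusted p = 0.568). Enpp6, at 7.09, 7.38 and 7.68 CPM in Cre males and 5.51, 6.29 and 7.8 CPM in GFP males, was the other (0.17 ± 0.16, adjusted p = 0.532). No test compared the medians of the classes.

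In females no member was called for Cre (0% of all genes). None had an unadjusted p under 0.05 (5.96% of all genes), 6 of the 32 genes had a log2 fold change above 0 (50.1% of all genes did) and 26 below, and the median was -0.080. Without GFP female library 1 the median was -0.029 with 11 genes above 0, and without GFP female library 2 it was -0.12. Olig1 was at 65.2, 70.2 and 68.6 CPM in Cre females and 53.2, 56.9 and 64.1 CPM in GFP females. Each Cre library lay above each GFP library, and the fold change of 0.23 ± 0.11 (SE) did not pass the test (adjusted p = 0.833). Nkx6-2 was at 5.44, 4.92 and 5.204 CPM in Cre females and 4.29, 3.45 and 5.28 CPM in GFP females, with overlap (0.26 ± 0.23, adjusted p = 0.892). C1ql1 was at 5.03, 5.45 and 5.54 CPM in Cre females and 5.26, 5.46 and 6.51 CPM in GFP females, also with overlap. Of all members, Olig1 alone had its Cre female libraries all above the GFP libraries (6.5% of all genes), and 3 had them all below (5.04% of all genes), Aspa, the enzyme that splits N-acetylaspartate, among them (-0.23 ± 0.14, adjusted p = 0.875).

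For the structural genes, Mbp was at 1571, 1279 and 1489 CPM in Cre females and 1804, 1404 and 1543 CPM in GFP females. Mog had 41.5, 36.6 and 39.3 CPM in Cre females and 49.5, 36.5 and 40.7 CPM in GFP females. Mag had 129, 114 and 107 CPM in Cre females and 138, 116 and 123 CPM in GFP females. In each case the groups overlapped, as they did for the next genes. Cnp had 255, 253 and 267 CPM in Cre females and 287, 260.2 and 251 CPM in GFP females. Sox10 had 35.4, 31.7 and 35.3 CPM in Cre females and 36.7, 34.2 and 36.5 CPM in GFP females. Olig2 had 19.3, 20.3 and 16.95 CPM in Cre females and 18.2, 19.5 and 18.8 CPM in GFP females. Adjusted p was between 0.925 and 0.9999 for these 6 genes. Myrf had 53.1, 42.5 and 48.3 CPM in Cre females and 58.5, 50.2 and 52.5 CPM in GFP females. Pdgfra had 78.7, 84.4 and 74.2 CPM in Cre females and 83.9, 85.7 and 82.6 CPM in GFP females (-0.089 ± 0.058 SE, adjusted p = 0.882). Cspg4 had 28.3, 26.4 and 22.7 CPM in Cre females and 23.5, 25.1 and 27.6 CPM in GFP females. Here too the groups overlapped. Gpr17 had 53.8, 58.4 and 58.9 CPM in Cre females and 58.04, 73.6 and 58.9 CPM in GFP females (-0.16 ± 0.091, adjusted p = 0.869). Enpp6 had 6.32, 6.24 and 8.69 CPM in Cre females and 8.41, 9.42 and 7.25 CPM in GFP females. For both, Cre and GFP values overlapped. Mal was the third member of smallest p above 0 (0.084 ± 0.21, adjusted p = 0.969).

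**Figure D4:**
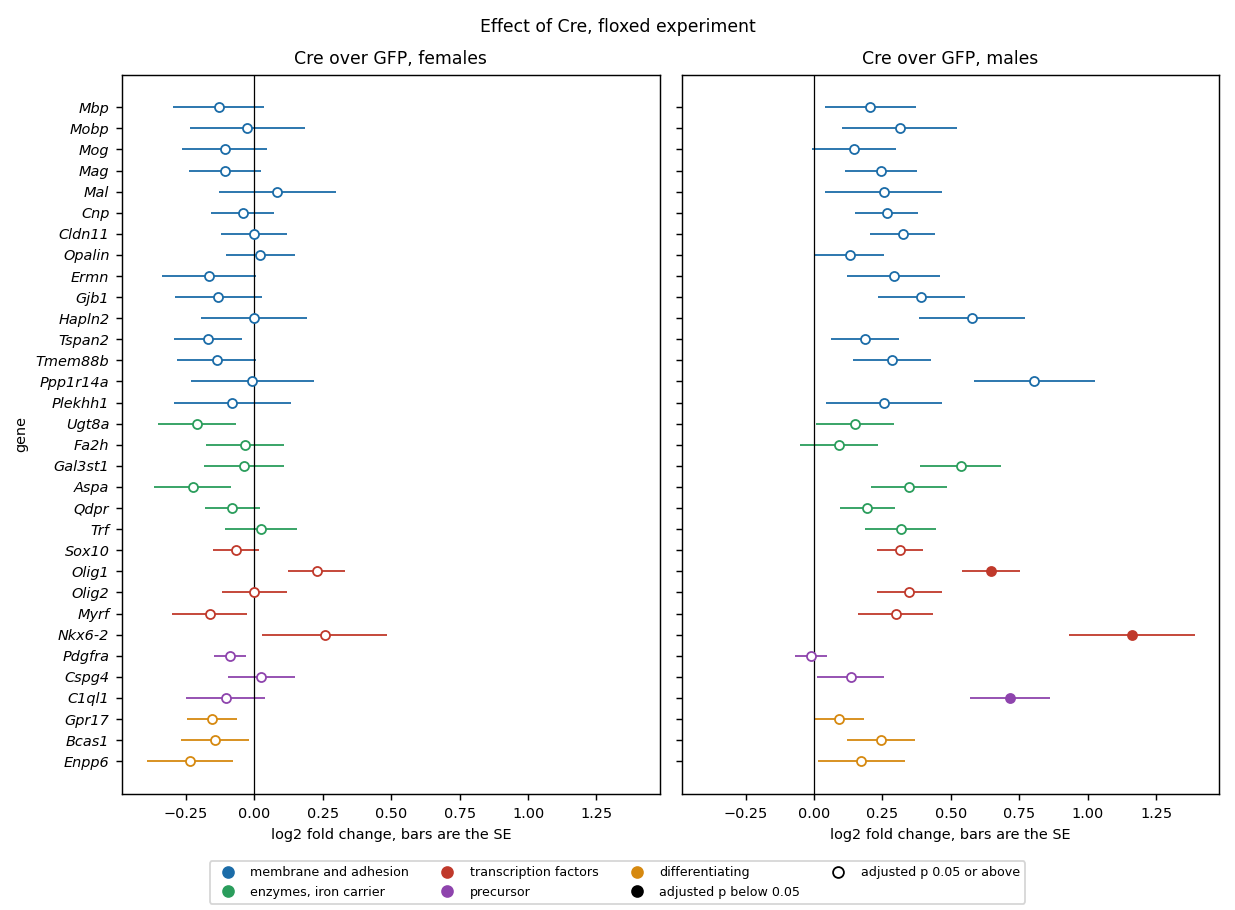
Log2 fold change of each of the 32 genes, Cre over GFP, in females (left) and males (right), with bars of 1 SE and 3 libraries per group; filled points have an adjusted p below 0.05. In males 31 genes lie above 0 and Olig1, Nkx6-2 and C1ql1 are filled, and in females 26 lie below 0 and none is filled.

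The difference between the sexes was tested directly. For all 32 members the effect of Cre in females minus that in males was below 0 (50.2% of all genes lay above 0), with a median of -0.35 (all genes 0.00097), and no member was called by edgeR (0.0114% of all genes). C1ql1 had the smallest p (-0.82 ± 0.20 SE, adjusted p = 0.106), followed by Sox10 (-0.38 ± 0.12, adjusted p = 0.166) and Aspa (-0.57 ± 0.20, adjusted p = 0.196). In all, 10 members had an unadjusted p under 0.05, where 17.5% of all genes did. DESeq2 called C1ql1 among 606 of all genes, where edgeR called 2. Without Cre male library 2 the median was -0.18 and 5 of the 32 genes were above 0. Averaged over the sexes, Olig1 was called (0.44 ± 0.075, adjusted p = 0.0225; 1.42% of all genes were called), and Nkx6-2 (0.71 ± 0.16, adjusted p = 0.0582) and C1ql1 (0.30 ± 0.10, adjusted p = 0.192) were not. Below 0, the members of smallest p on average were Pdgfra (-0.049 ± 0.041), Gpr17 (-0.032 ± 0.064) and Ugt8a (-0.030 ± 0.10), with adjusted p of 0.64, 0.862 and 0.923. The average call for Olig1 was lost without Cre female library 2 or 3, without GFP female library 1 or 2, and without GFP male library 2 or 3.

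The 5 lists of other pathway genes were also read in Cre males, where single genes are set against the 3.68% of all genes that rose and the 1.28% that fell. These lists, too, were chosen with earlier results of these data known. Of the 18 cholesterol synthesis genes tested, 16 had a log2 fold change above 0, and among those that rose were Srebf2, the factor that drives the pathway (0.31 ± 0.072 SE, adjusted p = 0.0318), and Sqle, the squalene epoxidase (0.46 ± 0.12, adjusted p = 0.0493). The summed level of the 18 genes was 899, 909.8 and 831 CPM in Cre males and 749, 745 and 714 CPM in GFP males, so here library 1 was nearly as high as library 2. The sum was 738, 738 and 768 CPM in Cre females and 768, 691 and 799 CPM in GFP females, which overlapped. Without Cre male library 2, 17 of 18 lay above 0 with a median of 0.20, and neither Srebf2 (0.32 ± 0.078, adjusted p = 0.0588) nor Sqle (0.35 ± 0.11, adjusted p = 0.136) was called. Neurons and astrocytes also make cholesterol, and the cortical markers were high in the same 3 libraries. The part of these cells in the cholesterol synthesis values was not tested.

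Of the 35 other mature oligodendrocyte genes, 31 lay above 0 in Cre males (median 0.23) and 2 rose: Klk6, a secreted protease (0.87 ± 0.19 SE, adjusted p = 0.0267; without library 2 0.95 ± 0.21, adjusted p = 0.0435), and Tmem125 (0.48 ± 0.11, adjusted p = 0.0285; without library 2 adjusted p = 0.0988). Of 14 other precursor genes, Sox5, an SRY-box factor (1.06 ± 0.16, adjusted p = 0.0082) and Emid1 (0.94 ± 0.15, adjusted p = 0.0101) rose. Among the 19 regulators, Id2, an inhibitor of helix-loop-helix factors (0.66 ± 0.081, adjusted p = 0.00348), and Lingo1, a brake on differentiation and on neurite growth (0.71 ± 0.10, adjusted p = 0.00623), rose. Without library 2 all 4 were still called. Sox5, Id2 and Lingo1 are also made by cortical neurons, and the part of these neurons in the calls was not tested. Of the 11 node and paranode partners, Cntnap2, the axonal partner of juxtaparanodal adhesion, fell (-0.28 ± 0.052, adjusted p = 0.0154). In Cre females none of these lists held a called gene, and the smallest p values belonged to Klk6 (-0.56 ± 0.19), Neu4 (-0.19 ± 0.082), Sox8 (0.32 ± 0.090), Lss (-0.071 ± 0.050) and Sptbn4 (0.25 ± 0.093), with adjusted p of 0.703, 0.824, 0.618, 0.882 and 0.783.

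Females and males were compared over both groups of each experiment. No member was called in the wild-type experiment (0.0393% of all genes) or in the floxed experiment (0.0682% of all genes). Cldn11 had the smallest p in wild-type mice, lower in females (-0.29 ± 0.093 SE, adjusted p = 0.971), followed by Mal (-0.20 ± 0.10) and Cnp (-0.16 ± 0.10). On the other side were Bcas1 (0.18 ± 0.13), Sox10 (0.13 ± 0.19) and Myrf (0.057 ± 0.13). In floxed mice the members of smallest p were Opalin, a sialylated protein of the sheath (-0.21 ± 0.089, adjusted p = 0.725), Ppp1r14a (-0.29 ± 0.16) and Cnp (-0.13 ± 0.081) below 0, and Olig1 (0.14 ± 0.075), Gpr17 (0.12 ± 0.064) and Enpp6 (0.15 ± 0.11) above 0.

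The members were then followed within groups, as log2 CPM less the group mean, over the 12 libraries of each experiment. In floxed libraries the mature genes varied together: all 325 pairs had a positive Pearson r, with a median of 0.80. Without Cre male library 2 the median was 0.53 and 272 pairs were positive, and without library 1 it was 0.69. Of the 8 marker lists of other cells, 3 had the values farthest from 0 against the mean of the mature genes: r was 0.84 for the choroid plexus list, 0.77 for the septal, pallidal and hypothalamic list and -0.81 for the medium spiny neuron list (12 libraries), and 0.26, 0.36 and -0.023 without Cre male library 2 (11 libraries), a comparison chosen after seeing the data. Of the other lists, r went from 0.67 to -0.59 for meningeal and from 0.65 to -0.20 for astrocyte markers without that library. It went from -0.56 to -0.35 for microglia, from 0.37 to 0.15 for cortical and from -0.17 to 0.16 for endothelial markers. In wild-type libraries r was -0.16 for choroid plexus, 0.19 for septal, pallidal and hypothalamic, 0.49 for medium spiny neuron and 0.69 for microglia markers. It was 0.48 for endothelial, 0.31 for astrocyte, 0.085 for cortical and -0.016 for meningeal markers. The part of these cells in the shared variation was not tested. Over the pairs of mature genes in wild-type libraries, the median r was 0.23 and 185 of 325 were positive, with r between -0.93 and 0.99. By the GC content of the transcripts, the median r there was 0.52 for pairs among the 13 mature genes of higher GC content, 0.085 for pairs among the 13 of lower GC content and -0.14 for mixed pairs. With the GC trend of each library removed, the median over all pairs was 0.22 and 203 of 325 were positive. Against the mean of the other mature genes, r was -0.79 for Aspa (38.5% GC), -0.72 for Tspan2 (42.2%), -0.40 for Ermn and -0.39 for Ugt8a (38.0% each), but it was also below 0 for Qdpr (-0.48 at 52.8% GC) and Olig2 (-0.34 at 58.5%), and it was 0.98 for Tmem88b at 48.1% GC. These genes were chosen after their values were seen. Within single wild-type libraries, the deviation of the 32 genes followed GC content with r between -0.86 (stressed male library 2) and 0.69 (stressed male library 3), and that of all genes with r between -0.67 and 0.58. In the floxed libraries r ran from -0.59 (GFP female library 1) to 0.75 (GFP female library 3) for the 32 genes and from -0.20 to 0.19 for all genes. These values share library, depth and dissection and are given as a description.

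**Figure D5:**
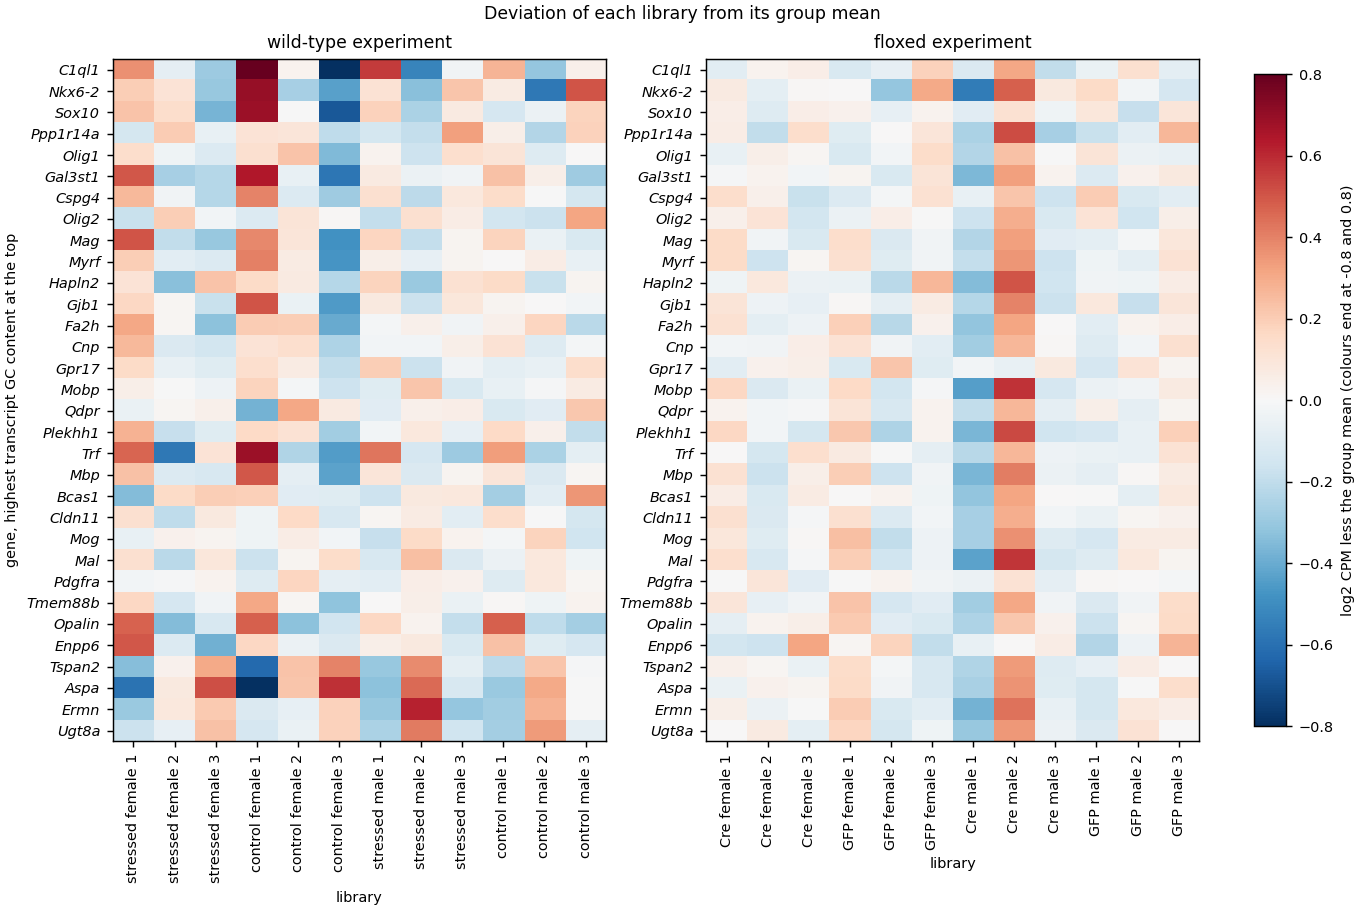
Log2 CPM of each gene in each library less its group mean, genes ordered by GC content of the longest transcript (highest at the top), for the wild-type (left) and floxed (right) experiment; within each sex the stressed or Cre libraries stand left of their controls, and colours end at -0.8 and 0.8. In wild-type libraries upper and lower rows often have opposite colours. In the floxed experiment Cre male library 2 is high and Cre male library 1 low over nearly all rows, each against a group mean that includes library 2. The mean log2 CPM of the mature genes was 5.21 in Cre male library 1 and 5.12 to 5.25 in GFP males.

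GC content also went with the Cre comparison. Across the 32 genes, the log2 fold change in Cre males was higher at higher GC content (r = 0.58, Spearman's rho = 0.54; over all genes r = 0.18), and likewise in Cre females (r = 0.57; over all genes 0.12). C1ql1, Nkx6-2 and Olig1 had 65.8%, 64.3% and 61.05% GC, against a median of 53.1% over the members. With a correction for GC content in each library, Nkx6-2 and Olig1 were still called in Cre males and C1ql1 was not, the median was 0.23, and the average over the sexes held no called member. With this correction and without Cre male library 2, Olig1 alone was called and the median was 0.061.

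The genes outside the 32 whose deviations were most like the mean of the mature genes, by the mean of the Pearson r in the 2 experiments over 12 libraries each, were Galnt6 (0.96), Arhgef10 (0.94), Myo1d (0.92), Ift46 (0.89), Unc5b (0.88), Micall1 (0.88), Prr18 (0.86), S1pr5 (0.86), Pacs2 (0.85) and Pkp4 (0.84). Galnt6 had r of 0.97 in wild-type and 0.95 in floxed libraries, and it and S1pr5 stand in the list of other mature oligodendrocyte genes. These values are the highest of a ranking of all genes that qualified. They were not computed without Cre male library 2 or with the GC trend removed.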

How the data were processed

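RNA was measured in 24 libraries of 4 pooled mice each. The deposited values are raw read counts per Ensembl gene for 37991 genes, with no scaling by the authors. The submitters' processing notes name Bowtie2 2.1.0, TopHat2 2.0.9, HTSeq 0.6.0 and the builds NCBIM37 and mm9, without settings. Symbols, GC content, exon lengths and overlaps came from the GENCODE annotation of a later build, and no coordinates were taken over. Rows without a symbol there held 0.736% to 0.911% of a library's counts, and no column of per-sample values was left unused.

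The 12 libraries of each experiment were fitted together with edgeR 4.0.16 in R 4.3.3 (limma 3.58.1, TMM factors, its filter on low counts, robust quasi-likelihood test), with 1 coefficient per group and 10 contrasts. A gene was called at a Benjamini-Hochberg adjusted p below 0.05 over all genes tested, 15249 and 17597. Errors are SE, and intervals are 95%. CPM per kb used exon length. The scripts were tested on simulated data. The members and lists were chosen with earlier results of these data known.

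Named are all called members, the 3 members of smallest p in each direction of a contrast, 11 members by library, called genes of each other list with its smallest p (some genes are not reported here), and the 10 genes whose log2 CPM less group mean (mean log2 CPM of at least 1) had the highest mean r with the mature genes. Genes added after their values were seen are described as such or given for the class extremes. Alternatives were DESeq2 1.42.0, its size factors, no filter, the 2 groups alone, marker covariates, a replicate block, each library left out and, added after seeing the data, a GC correction. Same-numbered libraries deviated together in stressed and control females (r of 0.59, 0.33 and 0.52, each above the limit of 0.1), although the labels state no pairing. The deviation of all genes followed GC content with r of 0.53 and 0.58 in stressed and control female library 1. It was -0.14 and -0.0033 in library 2 and -0.55 and -0.67 in library 3. A pairing of the libraries and a shared GC trend cannot be told apart by this check. In stressed and control males (0.34, 0.25 and 0.086), Cre and GFP females and Cre and GFP males, at least 1 r was not above 0.1. Across sexes, all 3 were above 0.1 only for stressed females with control males (0.61, 0.39 and 0.23).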

Additional observations from a re-analysis of the deposited data

How the results depend on the processing

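With 3 libraries per group, and 7116123 to 12145551 counts per wild-type library, the wild-type experiment gives wide intervals, and 1 library can set a Cre result. Of the values under alternatives, 6326 kept their side of the threshold, 29 lost a call and 13 gained one. The sign turned in 625 values, none of them called in either fit. In Cre males 31 of the 32 genes lay above 0, but 15 with the cortical or the choroid plexus covariate. For the difference between the sexes 0 did, but 13 with the cortical covariate, and for sex in floxed mice 8 did, but 25 without Cre male library 2. The number of members called in Cre males was 3 (872 of all genes), and it was 7 with DESeq2 (adding Sox10, Hapln2, Ppp1r14a and Gal3st1; 1811 of all genes), 4 without the filter (adding Sox10; 784), 2 with the GC correction (686), 1 with only the 2 groups (Olig1; 551), 1 with the GC correction and without Cre male library 2 (Olig1; 232), and 0 with the cortical (0) or the choroid plexus covariate (43). Leaving out 1 library gave 0 to 4 members and 93 to 1303 of all genes called. The median log2 fold change in Cre males was -0.082 with the cortical covariate, -0.0046 with the choroid plexus covariate, 0.061 with the GC correction and without library 2, and 0.10 to 0.40 with 1 library left out.

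Averaged over the sexes, 1 member was called in the main fit (Olig1; 1.42% of all genes). DESeq2 called 2 (Olig1 and Nkx6-2; 652 of all genes), and so did the fit without the filter (295 of all genes). No member was called with the cortical covariate (0 of all genes) or with the GC correction (97). The same held with that correction and without Cre male library 2 (60). With 1 library left out, 0 to 2 members and 17 to 401 of all genes were called. The median with the choroid plexus covariate was -0.081. For the difference between the sexes, 0 members were called in the main fit (2 of all genes) and 1 with DESeq2 (C1ql1; 606 of all genes). Leaving out 1 library gave 0 to 1 members and 0 to 500 of all genes called. Its median was -0.038 with the cortical covariate, -0.12 with the choroid plexus covariate and -0.48 to -0.18 with 1 library left out. With 1 library left out, the median for stress was -0.11 to 0.11 in females, and that of the difference between the sexes -0.044 to 0.18, the extremes being without control female library 3 and without control female library 1 in both cases. The median r between mature genes in floxed libraries was 0.53 to 0.84 with 1 library left out. The cause of these shifts was not tested. The replicate block changed no call of a member, but fewer of all genes were called in Cre males. There 3 members were called (median 0.27), with 515 of all genes against 872 in the main fit. Members with an unadjusted edgeR p under 0.05 went from 13 to 10. Averaged over the sexes, 1 member and 87 of all genes were called with the block. For stress in females, where same-numbered libraries deviated together, 0 members and 0 of all genes were called.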
